A study of Brassica rapa with 8 samples.

Results

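The comparison described here sets whole seedlings of Chinese cabbage (*Brassica rapa*) treated with the auxin conjugate IAA-Ala against untreated seedlings. It rests on 4 of the 8 libraries of the series, chosen by their treatment label, with 2 libraries labelled IAA-Ala and 2 labelled as a control without treatment. Gene expression was examined across the 46250 genes listed in the count tables and, in more detail, across 42 auxin genes. These are the genes of auxin metabolism that the study's figures pair with identifiers. All libraries came from the cultivar Cantonner Witkrop. Treatment began at a seedling age of 1 day, on 1% agar that held 0.01 mM IAA-Ala (indole-3-acetyl-L-alanine) or, for the control, no hormone. It lasted 24 h in constant light at 22 °C. The RNA represents 100 mg of entire seedlings, so that fewer cells of a type and less RNA per cell cannot be told apart. The sample titles give a treatment of 3 h and call the control a mock treatment, while the protocol gives 24 h. The time is therefore stated in 2 ways. The other 4 libraries, with 2 each after 0.01 mM IPA-Ala (indole-3-propionyl-L-alanine) and 0.01 mM IBA-Ala (indole-3-butyryl-L-alanine), are used only for comparison. The design text describes the replicates as biological.

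Indole-3-acetic acid (IAA) is the main natural auxin. When auxin binds its receptor in the cell nucleus, Aux/IAA repressor proteins are degraded and early auxin genes are transcribed, among them the *Aux/IAA* genes themselves, *SAUR* genes and *GH3* genes. In *A. thaliana*, part of the GH3 family joins IAA to amino acids. Such conjugates are stored, oxidized or cleaved again by amidohydrolases, which for IAA-Ala would release IAA and alanine. YUC enzymes make IAA from indole-3-pyruvic acid, and glucosyltransferases and the dioxygenase DAO1 act in auxin inactivation. The names of the *B. rapa* genes below come from their similarity to *A. thaliana* genes, and the roles given are those known in that species.

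The libraries held between 16616214 and 19521990 counts on genes in these 4 libraries. Both IAA-Ala libraries were deeper than both controls, at 19521990 and 19195937 against 17552936 and 16616214 counts. They also had a smaller share of uniquely aligned reads that matched no gene feature in counting, 16.3% and 15.9% against 19.3% and 16.7%. The part of this share in the results was not tested. Between 2584573 and 2881490 reads per library aligned at several places and belong to no gene's count, which makes levels uncertain where a gene has a near-identical copy. Levels are given as CPM, that is counts in proportion to the library's depth, scaled by edgeR's TMM factors. An upper limit of 3 counts, which covers counting error only, corresponds to between 0.161 and 0.188 CPM. The replicates differed by more than counting error, with a chi-square per gene of 45.6 for the control and 23.1 for IAA-Ala, where counting error alone gives about 1.

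Few genes differed between IAA-Ala and control at the strictest threshold, and most of those that did were higher after IAA-Ala. Of 26769 genes tested with edgeR's quasi-likelihood test, 13 were differentially expressed genes (DEGs), defined by an adjusted p below 0.01 with Benjamini-Hochberg adjustment over all genes tested. This is 0.0486% of the genes tested. Of the DEGs, 11 were higher after IAA-Ala (0.0411%) and 2 were lower (0.00747%). At an adjusted p below 0.05 there were 179 genes (0.669%), 156 higher (0.583%) and 23 lower (0.0859%). An unadjusted p below 0.05 was found for 3649 genes (13.6%), 1891 higher (7.06%) and 1758 lower (6.57%). The number of DEGs depended on the tool, since DESeq2 called 375 genes at an adjusted p below 0.01 (1.4%), 293 higher (1.09%) and 82 lower (0.306%), among them 13 of the 13 genes called by edgeR. With the counts thinned to the total of the smallest library, edgeR called 17 DEGs that included 13 of the 13. The number also depended on single libraries, with 3 DEGs without control replicate 1, 1 DEG without control replicate 2, 14 DEGs without IAA-Ala replicate 1 and 129 DEGs without IAA-Ala replicate 2.

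The DEGs had large fold changes, but a call with 2 libraries per group favours genes with large differences. Most genes tested changed by less than 2-fold. The median log2 fold change over all genes tested was −0.02, with 5% of genes below −1.10 and 5% above 1.03. For 88.6% of genes it lay within 1 of 0 in either direction, while 1431 genes were at least 2-fold higher and 1630 at least 2-fold lower. The 11 DEGs that rose had log2 fold changes between 2.55 and 7.27, with a median of 3.41. In each of them, the lower IAA-Ala library was at least 4.52 times the higher control library. A switch between no reads and at least 10 reads was rare. There were 5 genes with no count in either control and at least 10 counts in both IAA-Ala libraries, and 7 genes with the reverse pattern.

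**Figure D1:**
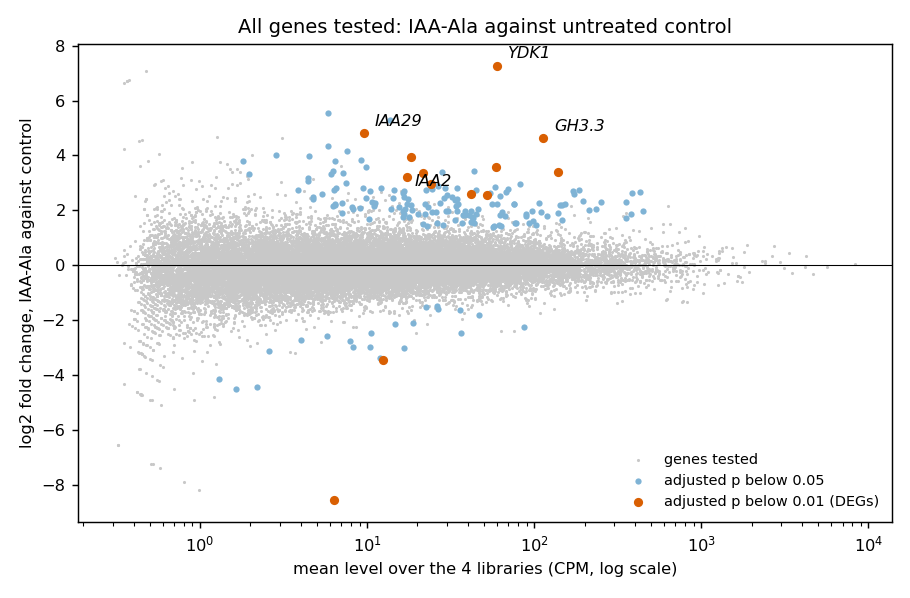
Log2 fold change of IAA-Ala against control (vertical) and mean level over the 4 libraries in CPM (horizontal, log scale) for the 26769 genes tested. Each point is a gene, with the 13 DEGs at an adjusted p below 0.01 in orange and the other genes below 0.05 in blue. Most coloured points lie above 0, and *YDK1* is the highest at 7.27.

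The excess of higher genes was found mainly among genes with middle and high levels. When the genes tested were divided by mean level into 4 bins of equal size, the lowest bin, up to 3.27 CPM, held 3 genes higher and 4 lower at an adjusted p below 0.05 (edgeR). The next bin, up to 10.8 CPM, held 33 higher and 7 lower, and the one after it, up to 30.9 CPM, 46 higher and 8 lower. In the bin with the highest levels, 74 genes were higher and 4 lower. The DEGs were distributed as 0, 2, 5 and 6 over the same bins. The difference between bins was not tested, and fewer counts give less precision in the lowest bin.

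The distance between the groups was not larger than that between replicates for every pair of libraries. As a root mean square of log2 CPM differences over 27948 genes, the control replicates were 0.729 apart and those of IAA-Ala 0.690. Between a control and an IAA-Ala library it lay between 0.668, for control replicate 2 and IAA-Ala replicate 2, and 1.01, for control replicate 1 and IAA-Ala replicate 1, with a mean of 0.842. Both IAA-Ala libraries lay above both controls for 6512 genes (24.3%) and below both for 5874 (21.9%). With 2 libraries per group, the smallest p of a two-sided exact permutation test of a single gene is 0.333, so all calls rest on the model fitted across genes.

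Among the 42 auxin genes, the DEGs were 2 *GH3* genes and 1 *Aux/IAA* gene. Reads were counted for 38 of them in at least 1 of the 8 libraries, and 32 passed the filter on low counts and were tested. The 3 DEGs were *YDK1*, *GH3.3* and *IAA29*, all higher after IAA-Ala, where 0.0486% of all genes tested were DEGs. *IAA2* was the 1 further gene with an adjusted p below 0.05 (edgeR, against 0.669% of all genes tested). At an unadjusted p below 0.05, 10 auxin genes were higher (7.06% of all genes tested) and 2 lower (6.57%). Both IAA-Ala libraries lay above both controls for 13 genes and below both for 3, and the groups overlapped for 16, where 46.3% of all genes tested had groups apart. The study chose 12 of the 42 genes as DEGs of at least 1 of its treatments, on libraries that include these. Their counts are therefore not independent evidence of a direction. Of these 12 genes, 11 were tested here, with 10 higher and 1 lower and a median log2 fold change of 1.72. The other 30 genes, of which 21 were tested, had 0 with an adjusted p below 0.05 (edgeR) and 1 with an unadjusted p below 0.05, while DESeq2 called 0 at 0.01. There, 10 genes were higher and 11 lower, with a median log2 fold change of −0.03 against −0.02 over all genes tested.

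**Figure D2:**
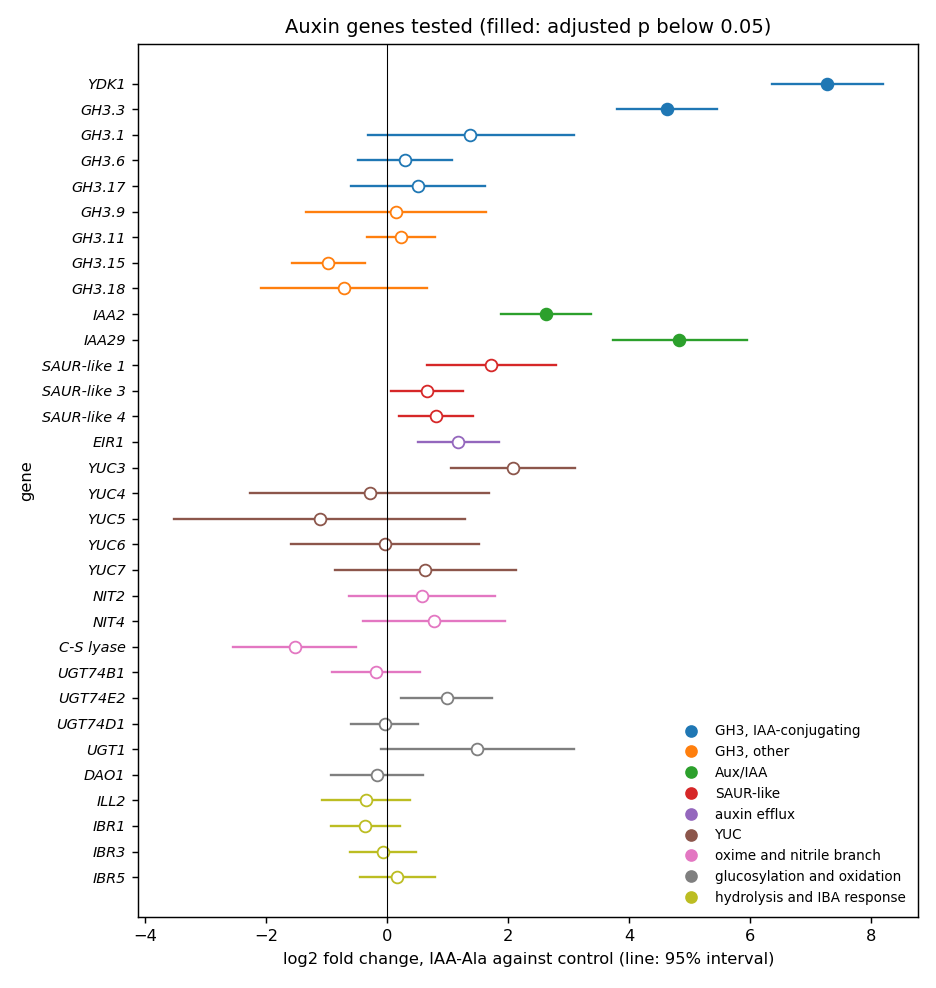
Log2 fold change of IAA-Ala against control for the 32 auxin genes tested, with lines for the 95% interval and colours for the gene group. Filled points mark an adjusted p below 0.05 (edgeR), reached by *YDK1*, *GH3.3*, *IAA2* and *IAA29*, whose intervals lie furthest to the right of 0.

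The largest rise of the comparison was that of *YDK1*, a GH3 gene also known as *GH3.2* whose product joins IAA to amino acids. *YDK1* (BraA01g001510.3C) had 9 and 17 counts in the control replicates and 2490 and 1943 counts in the IAA-Ala replicates. These correspond to 0.491 and 1.06 CPM in the control and to 135 and 104 CPM after IAA-Ala. It was nearly silent in untreated seedlings, and the groups lay far apart. The mean level rose 154-fold, with a log2 fold change of 7.27 (standard error, SE, 0.41, 95% interval from 6.36 to 8.19, adjusted p = 0.000114, edgeR). It ranked first of the 26769 genes both by p and by log2 fold change.

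A second IAA-conjugating gene, *GH3.3* (BraA09g054360.3C), was already expressed in untreated seedlings. Its level was 11.2 and 6.39 CPM in the control and 175 and 262 CPM after IAA-Ala, without overlap. The log2 fold change was 4.62 (SE 0.37, adjusted p = 0.000938, edgeR), and *GH3.3* ranked 3 by p over all genes. The other IAA-conjugating *GH3* genes did not pass the test. *GH3.1* (BraA09g010220.3C) was at 0.164 and 1.38 CPM in the control and at 2.44 and 1.45 CPM after IAA-Ala, so that the groups were only just apart. Its control replicates held 3 and 22 counts, and its log2 fold change of 1.37 had an interval from −0.32 to 3.08. Without control replicate 1 this fold change was 0.46, and without control replicate 2 it was 3.5. *GH3.6* (BraA02g013860.3C) was at 18.2 CPM in both controls and at 14.6 and 30.5 CPM after IAA-Ala, and *GH3.17* (BraA07g011840.3C), whose product forms IAA-glutamate, at 2.02 and 1.5 CPM and at 3.14 and 1.93 CPM. In both of these genes the groups overlapped.

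The other *GH3* genes, set apart here by role from the IAA-conjugating ones, showed no such rise. *GH3.15*, whose product in *A. thaliana* prefers IBA as its substrate, pointed in the other direction. *GH3.15* (BraA03g005710.3C) was at 135 and 99.5 CPM in the control and at 52.2 and 67.8 CPM after IAA-Ala, with both treated libraries below both controls. Its log2 fold change of −0.97 (SE 0.27, interval from −1.58 to −0.37) had an unadjusted p of 0.00477 and an adjusted p of 0.169 (edgeR) and did not pass the test. *GH3.11* (BraA05g001430.3C), the counterpart of the gene for jasmonate conjugation, was at 38.2 and 31.3 CPM in the control and at 39.1 and 43.0 CPM after IAA-Ala. Its interval, from −0.33 to 0.79 on the log2 scale, excluded a 2-fold change. *GH3.9* (BraA05g000230.3C) and *GH3.18* (BraA05g017470.3C) had overlapping groups, with log2 fold changes of 0.15 and −0.71. *GH3.18* took its sign from control replicate 2, which was at 3.57 CPM, while control replicate 1 was at 1.15 and the IAA-Ala replicates at 1.46 and 1.40 CPM, and without that library its log2 fold change was 0.31. The remaining members had hardly any reads. *GH3.8* (BraA02g015820.3C) had 1 count in IAA-Ala replicate 2 and 0 in the other 3 libraries, and a *GH3* family gene (BraA08g026630.3C) had between 1 and 3 counts in these 4 libraries, while *GH3.12* (BraA02g004780.3C) had 0 counts in each of the 8 libraries.

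**Figure D3:**
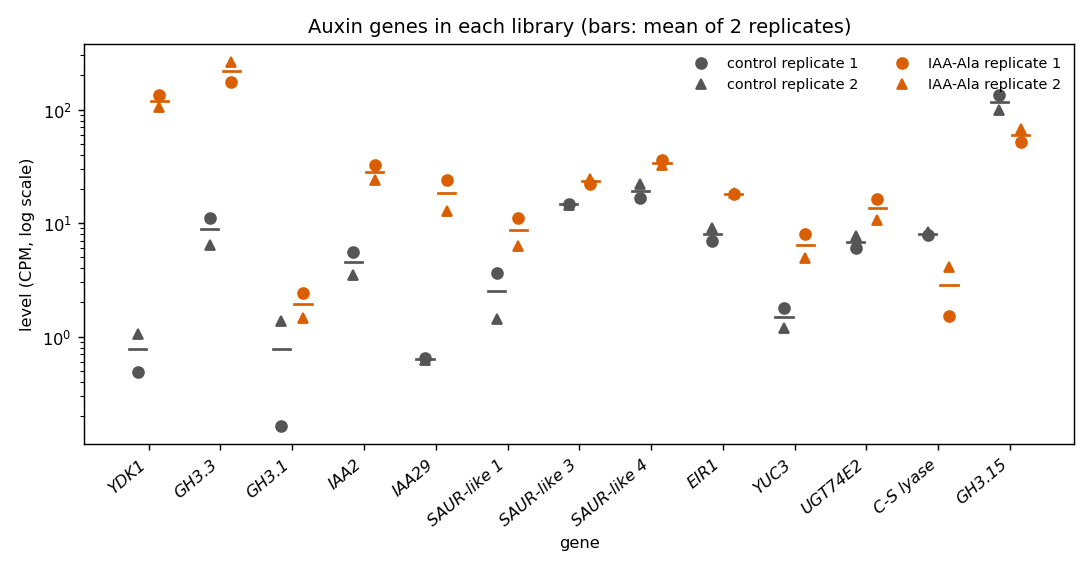
Level in CPM (vertical, log scale) of 13 auxin genes in the 2 control libraries (grey) and the 2 IAA-Ala libraries (orange), with circles for replicate 1, triangles for replicate 2 and bars for means. These are the 11 genes tested that the study chose as DEGs, with *GH3.1* and *GH3.15*. The treated libraries lie above the controls except in *C-S lyase* and *GH3.15*.

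Both *Aux/IAA* genes named in the study were higher in each treated library, a pattern found in 24.3% of all genes tested. The study chose both as DEGs on these same libraries. The products of *Aux/IAA* genes repress auxin-responsive transcription, and the genes are themselves early auxin targets. *IAA29* (BraA03g057220.3C) had 12 and 10 counts in the control and 447 and 239 counts after IAA-Ala. In CPM this was 0.655 and 0.626 against 24.2 and 12.8, so the controls were close to each other and the treated replicates differed by nearly as much as their lower value. *IAA29* rose with a log2 fold change of 4.82 (SE 0.50, interval from 3.74 to 5.94, adjusted p = 0.00501, edgeR). *IAA2* (BraA03g040660.3C) was at 5.56 and 3.51 CPM in the control and at 32.7 and 24.0 CPM after IAA-Ala. The log2 fold change of *IAA2* was 2.62, or 6.16-fold (SE 0.34 on the log2 scale, adjusted p = 0.0133, edgeR), past 0.05 but not 0.01.

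The calls of these genes varied with the libraries in the fit. In fits of the 3 libraries that remained, auxin DEGs numbered 2 without control replicate 1, 1 without control replicate 2, 3 without IAA-Ala replicate 1 and 4 without IAA-Ala replicate 2. With the spread estimated from 7 libraries of all 4 groups, the number was 0 whichever of the 4 libraries was left out. With all 8 libraries in one fit, the adjusted p from edgeR was 0.01001 in *YDK1*, 0.0134 in *GH3.3*, 0.0127 in *IAA29* and 0.00886 in *IAA2*, so that *IAA2* alone of the 4 was below 0.01. The fold changes moved less than the calls. With a library left out, the log2 fold change was 6.77 to 7.91 in *YDK1* (7.91 without control replicate 2), 4.27 to 5.07 in *GH3.3*, 4.30 to 5.22 in *IAA29* and 2.33 to 2.99 in *IAA2*.

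Of the 4 *SAUR*-like genes, members of a family of small auxin-induced proteins linked to cell expansion, 3 were tested. All 3 had both treated libraries above both controls (24.3% of all genes tested). They were higher at an unadjusted p below 0.05 (edgeR, 7.06% of all genes tested), and none passed adjustment. The study chose these genes as DEGs on libraries that include these controls, so their shared direction is not independent evidence. *SAUR-like 1* (BraA01g003500.3C) was at 3.65 and 1.44 CPM in the control and at 11 and 6.23 CPM after IAA-Ala, which is a log2 fold change of 1.72 (SE 0.48, adjusted p = 0.166, edgeR), or 2.54 without control replicate 1 and 1.22 without control replicate 2. *SAUR-like 4* (BraA07g029140.3C) was at 16.5 and 22.0 CPM against 35.8 and 32.3 CPM, and *SAUR-like 3* (BraA06g015440.3C) at 14.8 and 14.5 CPM against 22.1 and 24.4 CPM. Their log2 fold changes were 0.81 (SE 0.27, adjusted p = 0.241, edgeR) and 0.65 (SE 0.27, adjusted p = 0.322, edgeR). Both differences in means were below 2-fold. *SAUR-like 2* (BraA01g003520.3C) had 5 and 0 counts in the control and 7 and 3 counts after IAA-Ala, too few to be tested.

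*EIR1* (BraA03g012590.3C), the counterpart of a root auxin efflux carrier of the PIN family, was at 6.93 and 9.02 CPM in the control and at 18.1 and 18.3 CPM after IAA-Ala. The treated replicates were nearly equal and lay apart from the controls. The log2 fold change of *EIR1* was 1.18 (SE 0.30, unadjusted p = 0.00269, adjusted p = 0.137, edgeR), so it did not pass the test.

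In the *YUC* family, *YUC3* was the only gene tested whose groups did not overlap. *YUC3* (BraA10g003150.3C) was at 1.80 and 1.19 CPM in the control and at 7.96 and 4.94 CPM after IAA-Ala, without overlap. Its log2 fold change of 2.08 (SE 0.46) had an adjusted p of 0.0885 in edgeR and of 0.00906 in DESeq2, on opposite sides of the threshold. The other listed *YUC* genes had few reads in these seedlings. *YUC4*, *YUC5*, *YUC6* and *YUC7* were tested, with levels between 0 and 2.49 CPM and overlapping groups. *YUC7* (BraA05g011570.3C) was at 2.49 CPM in IAA-Ala replicate 1, but at 0.806 CPM in replicate 2 and at 0.873 and 1.25 CPM in the control, and its log2 fold change of 0.63 turned to −0.40 without IAA-Ala replicate 1. *YUC5* (BraA06g043510.3C) had 16 and 8 counts in the control and 0 and 12 counts after IAA-Ala, where a count of 0 allows up to 0.162 CPM. Intervals in this group were wide, from −2.27 to 1.69 for *YUC4*. Those of *YUC4*, *YUC5* and *YUC6* included a 2-fold change in either direction, and that of *YUC7* included a 2-fold rise only. *YUC8*, *YUC9* and a further *YUC* gene (BraA01g005540.3C) had at most 8 counts in a library, and *YUC10* and *YUC11* had 0 counts in each of the 8 libraries.

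The genes of the branch through indole-3-acetaldoxime and indole-3-acetonitrile, which *Brassica* plants share with glucosinolate synthesis, did not move together. *C-S lyase* (BraA03g054450.3C), which acts on this path, was at 7.85 and 8.33 CPM in the control and at 1.52 and 4.14 CPM after IAA-Ala. Both treated libraries were lower, with a log2 fold change of −1.52 (SE 0.46, unadjusted p = 0.00732, adjusted p = 0.187, edgeR) that did not pass the test. It was −0.97 without IAA-Ala replicate 1 and −2.43 without IAA-Ala replicate 2. The nitrilase *NIT2* (BraA03g012980.3C), which can form IAA from indole-3-acetonitrile, was at 1.91 and 0.877 CPM in the control and at 2.11 and 2.15 CPM after IAA-Ala. *NIT4* (BraA02g009700.3C), a nitrilase of cyanide detoxification, had overlapping groups of 1.31 and 3.01 CPM against 4.71 and 2.63 CPM. *UGT74B1* (BraA09g039260.3C), a glucosyltransferase of glucosinolate synthesis, was between 35.0 and 63.3 CPM in all 4 libraries, with a log2 fold change of −0.19.

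Of the glucosyltransferases, *UGT74E2* (BraA08g034260.3C), whose product in *A. thaliana* acts mainly on IBA, was at 6.0 and 7.64 CPM in the control and at 16.5 and 10.7 CPM after IAA-Ala. The groups were apart, with a log2 fold change of 0.98 (SE 0.34, unadjusted p = 0.0157, adjusted p = 0.251, edgeR). *UGT74D1* (BraA04g022840.3C), which can glucosylate IAA and its oxidized form, stood at 117 and 133 CPM in the control and at 121 and 124 CPM after IAA-Ala. Its interval from −0.59 to 0.51 on the log2 scale is among the narrowest here and excluded a 2-fold change. *UGT1* (BraA10g004380.3C) reached 8.18 CPM in IAA-Ala replicate 1 and only 1.34 CPM in replicate 2, with 1.42 and 1.94 CPM in the control, and its log2 fold change went from 1.49 to −0.32 without IAA-Ala replicate 1. The oxidase gene *DAO1* (BraA08g030300.3C) was at 13.4 and 8.08 CPM in the control and at 11 and 8.27 CPM after IAA-Ala, with overlapping groups. No read was assigned to *UGT84B1* (BraA09g054310.3C) in the 8 libraries, as its count was 0 in each.

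The hydrolase gene and the IBA response genes did not pass the test. *ILL2* (BraA03g012870.3C), which encodes an amidohydrolase that cleaves auxin conjugates, was at 8.4 and 11.9 CPM in the control and at 7.64 and 8.43 CPM after IAA-Ala, which is a log2 fold change of −0.35 with an interval from −1.08 to 0.38. For *IBR1* (BraA09g026060.3C), a peroxisomal enzyme gene of the conversion of IBA to IAA, the levels were 99.8 and 78.0 CPM in the control and 63.4 and 76.1 CPM after IAA-Ala. *IBR1* was just below both controls, with a log2 fold change of −0.36 (SE 0.26, adjusted p = 0.565, edgeR). *IBR3* (BraA05g038700.3C), of the same conversion, lay between 88.4 and 103 CPM in all 4 libraries. *IBR5* (BraA07g007390.3C), a phosphatase gene of auxin signalling, lay between 16.3 and 23.5 CPM. Of the 28 auxin genes tested without an adjusted p below 0.05 (edgeR), 7 had an interval that lay within a 2-fold change in either direction, and 21 had one that reached a 2-fold change. A change of 2-fold or more thus lay outside the 95% interval for those 7 genes only.

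Most DEGs were outside the auxin list and carry no name in the sources used here. BraA10g027040.3C rose from 8.78 and 9.21 CPM in the control to 115 and 102 CPM after IAA-Ala. Replicates were close in both groups, and it ranked second of all genes by p, with a log2 fold change of 3.58 (SE 0.28, adjusted p = 0.000938, edgeR). BraA04g028460.3C rose from 2.56 and 1.88 CPM to 47.6 and 21.3 CPM, with a log2 fold change of 3.93 (SE 0.45, adjusted p = 0.00841, edgeR), which was 3.24 without IAA-Ala replicate 1. The other 6 unnamed genes that rose had log2 fold changes between 2.55 and 3.41, mean levels between 3.35 and 23.8 CPM in the control and mean levels between 31.2 and 255 CPM after IAA-Ala.

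The 2 genes that fell differed in kind. BraA02g001260.3C had 250 and 185 counts in the control and 0 and 1 counts after IAA-Ala, so it went from 13.6 and 11.6 CPM to almost no reads. It also had 0 counts in the IPA-Ala and IBA-Ala libraries. The ratio of control to IAA-Ala was 470, with an interval from counting error alone of 84.0 to 18620, and the adjusted p was 0.000938 (edgeR). BraA03g038630.3C fell from 26.4 and 18.9 CPM to 2.71 and 1.45 CPM, remaining detected in both treated libraries, with a log2 fold change of −3.45 (SE 0.39, adjusted p = 0.00841, edgeR).

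IAA-Ala, IPA-Ala and IBA-Ala differ in the length of the acid side chain between the indole ring and the alanine, and they were given at the same concentration. IAA-Ala was compared directly with each of the other conjugates, 2 pairs in all. At an adjusted p below 0.01 (edgeR), 0 genes differed in either pair, with 6076 genes (22.7%) at an unadjusted p below 0.05 against IPA-Ala and 7342 (27.2%) against IBA-Ala. DESeq2 called 897 and 1794 genes at 0.01. At an adjusted p below 0.05 in edgeR, 626 genes differed from IPA-Ala (2.34%), 396 of them higher after IAA-Ala (1.48%), and 1848 from IBA-Ala (6.86%), 974 of them higher after IAA-Ala (3.61%). Without IAA-Ala replicate 2, 27 genes differed from IPA-Ala at 0.01.

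Of 33 auxin genes tested in each pair, 1 differed from IPA-Ala and 2 differed from IBA-Ala at an adjusted p below 0.05 (edgeR). Among all genes tested the shares were 2.34% and 6.86%, so that these counts were near the background and the values below describe single genes. *YDK1*, at 135 and 104 CPM after IAA-Ala, was at 26.2 and 49.3 CPM after IBA-Ala and at 4.6 and 29.1 CPM after IPA-Ala. Both IAA-Ala libraries were above the other treated libraries. The log2 difference was 1.66 from IBA-Ala (SE 0.30, adjusted p = 0.0288, edgeR) and 2.82 from IPA-Ala (SE 0.62, adjusted p = 0.0550, edgeR). *UGT74E2* was lower after IAA-Ala than after IBA-Ala, where it was at 39.4 and 27.3 CPM, by a log2 difference of −1.30 (SE 0.27, adjusted p = 0.0403, edgeR). *SAUR-like 2*, with 7 and 3 counts after IAA-Ala, had 44 and 51 counts after IPA-Ala, a log2 difference of −3.29 (SE 0.62, adjusted p = 0.0428, edgeR), and 92 and 19 counts after IBA-Ala, where it did not pass.

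*GH3.3* and *IAA29* did not pass an adjusted p of 0.05 (edgeR) in either pair. Of the 11 DEGs that rose, 2 passed it against IPA-Ala, both without a name (2.34% of all genes tested). Against IBA-Ala, 2 passed it, *YDK1* and a gene without a name (6.86% of all genes tested). These DEGs were chosen against the control with the same IAA-Ala libraries. *GH3.3* was at 22.3 and 83.2 CPM after IPA-Ala and at 103 and 178 CPM after IBA-Ala, against 175 and 262 CPM after IAA-Ala. The log2 difference of *GH3.3* was 2.05 from IPA-Ala (interval from 0.89 to 3.21, adjusted p = 0.0687, edgeR) and 0.63 from IBA-Ala (interval from −0.06 to 1.32, adjusted p = 0.216, edgeR). *IAA29* was at 4.19 and 7.80 CPM after IPA-Ala and at 10.2 and 21.2 CPM after IBA-Ala. Its log2 difference was 1.62 from IPA-Ala (interval from 0.75 to 2.50, adjusted p = 0.0618, edgeR) and 0.24 from IBA-Ala (interval from −0.71 to 1.18). For *IAA2* the interval lay within a 2-fold change against both conjugates, from −0.24 to 0.81 against IPA-Ala and from −0.86 to 0.08 against IBA-Ala. Such a narrow interval was found for 13 of the 33 genes against IPA-Ala and for 10 against IBA-Ala. Of the pair of genes that fell, BraA03g038630.3C was at 7.10 and 8.70 CPM after IPA-Ala and at 12.8 and 11 CPM after IBA-Ala, above both IAA-Ala libraries. Its log2 difference was −1.92 from IPA-Ala (adjusted p = 0.0454, edgeR) and −2.51 from IBA-Ala (adjusted p = 0.0258, edgeR).

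**Figure D4:**
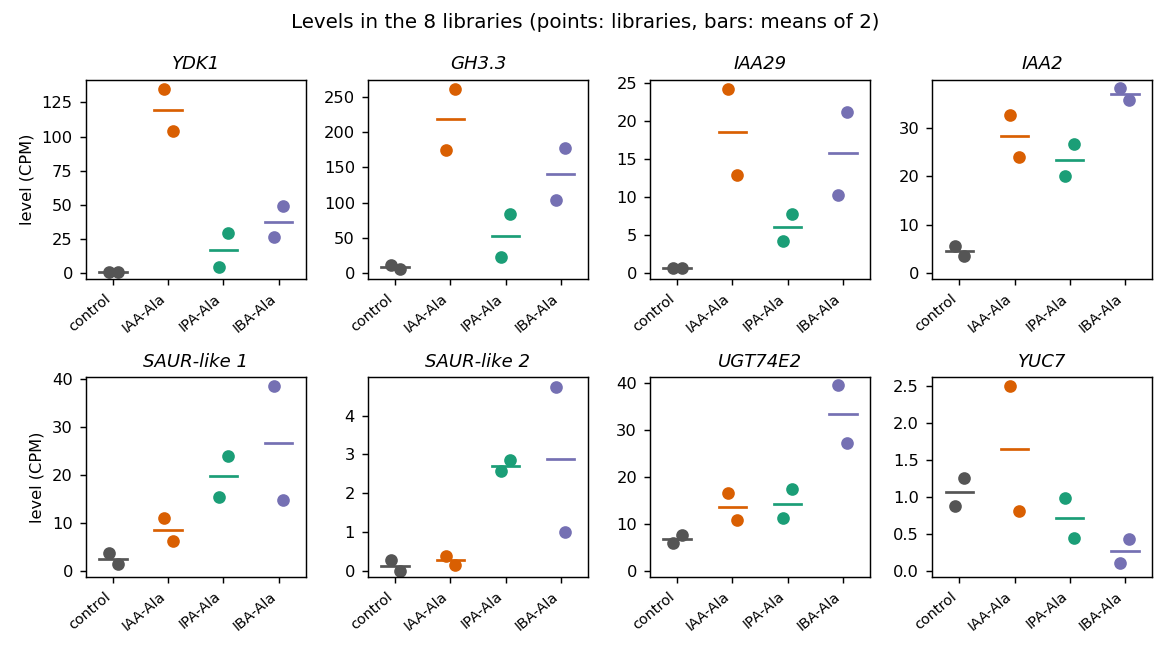
Level in CPM of 8 auxin genes in the 8 libraries (points), with bars for the means of 2 replicates and a separate vertical axis for each gene. *YDK1* is highest in both IAA-Ala libraries, at 135 and 104 CPM, while *UGT74E2* is higher in both IBA-Ala libraries and *SAUR-like 2* in both IPA-Ala and both IBA-Ala libraries.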

How the data were processed

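RNA of whole seedlings was sequenced in 8 libraries, of which 4 enter the main comparison. Reads of about 50 bp were clipped by 9 bases at the start and aligned with STAR 2.7.1a, and reads per gene were counted with HTSeq 1.99.2 with regard to strand, per the submitters' notes and file names. The values the authors deposited are raw counts per gene, without normalization. Tables named as normalized were not used, and the one for IAA-Ala was checked to hold the same raw counts. The 46250 genes are listed by identifier, and 0 of the identifiers matched the reference table, so positions and sequences are not given. Columns of samples outside the 8 libraries numbered 0.

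Lines that name no gene were dropped. The filter on low counts was filterByExpr of edgeR (counts of at least 10, total of at least 15). Counts were scaled by TMM and compared in fits of the 4 libraries concerned with edgeR 4.0.16 (quasi-likelihood test, R 4.3.3), with Benjamini-Hochberg adjustment over all genes tested. Fold changes used a prior count of 0.125. The standard error is the log2 fold change without prior count divided by the root of the F statistic, and intervals are at 95%. DESeq2 1.42.0 was the main alternative. The depth was between 16616214 and 19521990 counts on genes, and a count of 0 allows up to 3 counts.

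The auxin genes and lists were chosen with earlier results of these data known. Named were the 42 auxin genes and, among other genes with an adjusted p below 0.01 and groups apart, the 2 that rose and the 2 that fell most. For identifiers shown only in a figure, the picture was read. Alternatives were RLE normalization, other filters, a single fit of all 8 libraries, a block for the replicate number, robust priors, counts thinned to the smallest library, other thresholds and leaving out each library. Fits of 7 libraries, the edgeR 3 form of the test and crossed replicate numbers were added after seeing the data. Cell type markers were not matched to identifiers and were not analysed.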

Additional observations from a re-analysis of the deposited data

How the results depend on the processing

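Against the control, the number of DEGs was 13 and became 375 with DESeq2, 179 at an adjusted p below 0.05, 8 with RLE normalization, 6 with at least 10 counts required in every library, and 7 in the edgeR 3 form of the test. It was 10 with all 8 libraries in one fit, of which 6 were among the 13, and lay between 13 and 18 under no filter on low counts, robust priors, thinned counts and an added limit on the fold change. With the replicate number as a block there were 127 DEGs (58 with all 8 libraries). The deviations of same-numbered control and IAA-Ala libraries had a correlation of −0.03. With 2 libraries per group, this value cannot decide whether the replicate numbers pair the samples. Leaving out each replicate in turn gave between 0 and 129 DEGs, the 0 in fits of 7 libraries. Auxin genes called numbered 3, and 5 with DESeq2, 1 with all 8 libraries, 4 with the replicate block and between 0 and 4 with a replicate left out. The causes were not tested.

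Between IAA-Ala and IBA-Ala the number went from 0 to 1794 with DESeq2, 1848 at an adjusted p below 0.05 and 2201 with the replicate block, where the deviations of same-numbered libraries had a correlation of 0.13 and the 2 pairs do not show a pairing, and stayed at 0 with a replicate left out. Between IAA-Ala and IPA-Ala it went from 0 to 897 with DESeq2 and 626 at 0.05, and lay between 0 and 27 with a replicate left out. There the replicate block gave 0 genes and, as the deviations had a correlation of −0.10, crossed replicate numbers were tried and gave 1248. The crossing was chosen from these same data, so its count is not evidence of a pairing.

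Of 36 named genes, 24 kept their direction in all alternatives. In the other 12, none of them called, the sign turned when a replicate was left out, with log2 fold changes between −0.49 and 0.23 for *DAO1*, −1.35 and 0.32 for *GH3.18*, −0.33 and 0.75 for *GH3.6*, −0.79 and 0.72 for *GH3.9*, −0.18 and 0.031 for *IBR3*, −0.0075 and 0.34 for *IBR5*, −0.32 and 2.29 for *UGT1*, −0.57 and 0.32 for *UGT74B1*, −0.15 and 0.065 for *UGT74D1*, −1.04 and 0.22 for *YUC4*, −0.79 and 0.48 for *YUC6*, and −0.40 and 1.23 for *YUC7*. *YUC6* also turned to 0.10 with thinned counts. Without a change of sign, the log2 fold change moved furthest for *YUC5*, from −1.10 to −6.63 without IAA-Ala replicate 2, where it had 0 counts in the replicate that was left.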
